A study of Homo sapiens with 18 samples.

Results

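The genes described are *LITAF*, *SNX1* and their partners in endosomal sorting, 10 of the 26941 genes in the count tables. *LITAF* and *SNX1* were chosen by their readout, because *LITAF* was higher and *SNX1* lower with *SOX11* siRNA in every cell line, so their values in that contrast are given as a description without a test. The other 8 genes were added by function, namely the sorting nexins *SNX2*, *SNX5* and *SNX6*, the retromer genes *VPS26A*, *VPS29* and *VPS35*, and the ubiquitin ligase genes *NEDD4* and *ITCH*. RNA was sequenced from REH, 697 and RCH-ACV, which are established lines of B-cell precursor acute lymphoblastic leukemia (B-ALL). Each line had 3 samples with *SOX11* siRNA and 3 with a non-specific control siRNA, at 300 nM in all 18 samples, nucleofected and harvested 48 h later. The submitters' sample names use the word KO, but the treatment was a knockdown, and each line is a single culture model.

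Membrane proteins taken up into a cell reach endosomes, where they are either sent to the lysosome for degradation or recovered. Retromer, a complex of VPS26, VPS29 and VPS35, works with pairs of sorting nexins (SNX1 or SNX2 with SNX5 or SNX6) that bend the endosomal membrane into tubules and return cargo to the Golgi or the cell surface. LITAF is a small membrane-anchored protein of late endosomes and lysosomes that binds the ubiquitin ligases NEDD4 and ITCH, and ubiquitin tags put on cargo by such ligases are read by the ESCRT complexes, which carry cargo into the lysosomal route.

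The knockdown was read first from *SOX11* itself. With TMM scaling over the 18 samples, its mean level in CPM (counts scaled to the library total) was 96.4 in REH controls and 54.2 in REH knockdown samples. The 697 means were 59.6 and 31.7 CPM, the RCH-ACV means were 131 and 82.4 CPM, and all samples with *SOX11* siRNA lay below all controls of their line. The total count per sample lay between 7039594 and 16592492, and 3 counts correspond to 0.181 to 0.426 CPM. Some libraries stood apart from the other replicates of their group: replicate 3 of RCH-ACV with *SOX11* siRNA gave a chi-square per degree of freedom of 3.32 and 4.29 against the others, which gave 1.32 between themselves, and in 697 replicate 3 with *SOX11* siRNA (3.45 and 4.54, against 1.58) and control replicate 1 (4.13 and 4.97, against 1.77) did so too. Of 5 B-cell precursor markers *CD79A*, *CD79B*, *PAX5* and *EBF1* were present in every line, whereas *VPREB1* was at most 0.0960 CPM in REH. The summed T cell markers reached 0.191 CPM and the summed erythroid markers 0.391 CPM at most. The sum of 4 myeloid markers in REH, mostly *MPO*, was 14.1 to 15.7 CPM in controls and 8.83 to 10.0 CPM with *SOX11* siRNA. In RCH-ACV that sum was 27.0 to 31.0 CPM in controls and 23.6 to 29.3 CPM with *SOX11* siRNA, mostly from *CSF1R*. In 697 it was 2.35 to 4.05 CPM and 3.37 to 4.64 CPM, and the groups overlapped in both lines. The summed B-cell precursor markers in 697 were 1706 to 1799 CPM in controls and 1584 to 1631 CPM with *SOX11* siRNA. The part of these differences in the results was not tested. Because these are bulk samples, fewer cells of a type and less RNA per cell cannot be told apart.

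*LITAF* (chr16:11641578-11730237, minus strand, hg19) was higher with *SOX11* siRNA in each line. In REH the controls held 105, 99.3 and 92.8 CPM and the knockdown samples 123, 119 and 125 CPM. In 697 the controls held 17.6, 14.2 and 15.8 CPM and the knockdown samples 26.7, 28.1 and 35.1 CPM. In RCH-ACV the controls held 10.5, 10.1 and 10.9 CPM and the knockdown samples 12.9, 15.0 and 15.0 CPM. The groups did not overlap in any line, and knockdown sample 3 of 697 stood highest of its group. Relative to control, the REH mean was 124%, the 697 mean 189% and the RCH-ACV mean 136%. The log2 fold change fitted for REH was 0.31 ± 0.05, that for 697 was 0.91 ± 0.13 and that for RCH-ACV was 0.46 ± 0.11 (SE, n = 3 per group). In 697 the value was 0.79 without knockdown replicate 3 and 0.99 without control replicate 1, and in RCH-ACV it was 0.44 without knockdown replicate 3. The values in RCH-ACV rest on few reads, since *LITAF* had between 78 and 94 counts in the controls and between 102 and 251 with *SOX11* siRNA. Counts in 697 were also low, at 97 to 143 in the controls and 210 to 313 with *SOX11* siRNA. Its 4 RefSeq transcripts held nearly the same counts (8454 in total for NM_001136473 and 8450 for each of the others), so the tables do not tell them apart.

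*SNX1* (chr15:64386322-64438289, plus strand, hg19) was lower with *SOX11* siRNA in each line. In REH the controls held 137, 142 and 141 CPM and the knockdown samples 120, 123 and 131 CPM. In 697 the controls held 170, 174 and 168 CPM and the knockdown samples 133, 129 and 123 CPM. In RCH-ACV the controls held 166, 173 and 169 CPM and the knockdown samples 136, 141 and 143 CPM. Again no knockdown sample reached the lowest control of its line. Relative to control, the REH mean was 89.3%, the 697 mean 75.2% and the RCH-ACV mean 82.7%, and the log2 fold changes were -0.16 ± 0.04, -0.41 ± 0.06 and -0.27 ± 0.05 (SE, n = 3 per group). In 697 the value was -0.38 without knockdown replicate 3 and -0.42 without control replicate 1, and in RCH-ACV it was -0.28 without knockdown replicate 3. The 3 deposited *SNX1* transcripts share most of their reads. Reads of NM_003099 that NM_148955 does not hold were at 84.4%, 71.8% and 76.9% of control for REH, 697 and RCH-ACV, with 85 to 240 counts per sample.

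**Figure D1:**
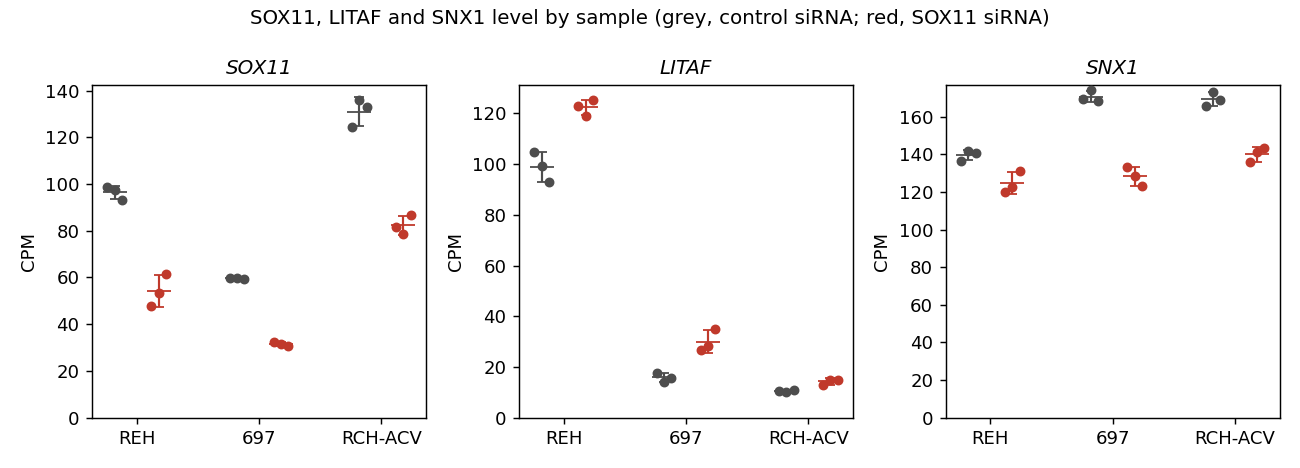
Level of *SOX11*, *LITAF* and *SNX1* in each of the 18 samples, in CPM on the vertical axis, by cell line; points are samples, and horizontal marks and bars are the mean and SD of 3. In every line the red points (*SOX11* siRNA) of *LITAF* lie above the grey points (control siRNA) and those of *SNX1* lie below them, which is the contrast that chose both genes.

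The 3′ UTR of *SNX1* was examined for a short word that had been picked from these same data. Of 16145 words of 7 bases, each held by at least 50 genes, GTGACGC ranked first toward lower levels with *SOX11* siRNA. The rank used the difference in log2 fold change, averaged over the 3 lines, between genes with and without the word, divided by its SE (-10.39). *SNX1* was among the genes that picked it, so its presence there is not independent evidence. The same limit applies to the other genes scored that hold the word. As background, an siRNA can also lower mRNAs whose 3′ UTR pairs with bases near the start of its guide strand. The siRNA sequences were not used here, and whether the word matches them was not tested. The word was found once in *SNX1*, 29 bases into a 3′ UTR of 6613 bases, and in none of the other 9 members on the transcript scanned. Among all genes 1.391% of 18405 held it (median 3′ UTR of 1092 bases). Among those with a 3′ UTR of similar length to that of *SNX1* (median 6324 bases) 5.096% of 785 did. Of 72 other endosomal sorting genes scanned (median 3′ UTR of 1777 bases), 4 held the word (5.556%). The sites below are shown because they are the copies in *SNX1*, in *SOX11* and in these 4 genes. Each is 30 bases in hg19 with the word in capitals. They lie at chr15:64429834-64429863 on the plus strand for *SNX1*, chr2:5834340-5834369 on the plus strand for *SOX11*, chr3:17198776-17198805 on the minus strand for *TBC1D5*, chr10:104575921-104575950 on the plus strand for *WBP1L*, chr9:129265873-129265902 on the plus strand for *MVB12B* and chr11:60897883-60897912 on the minus strand for *VPS37C*.
SNX1: gagcccacctgtGTGACGCtgcctttttat
SOX11: tgataagatgtcGTGACGCaaagaaattgg
TBC1D5: atggaatattcaGTGACGCcatgtatgccc
WBP1L: tgggcagtctcaGTGACGCatttcctgtgc
MVB12B: cctggccgcccaGTGACGCccaccggctcc
VPS37C: tgtgccatccgcGTGACGCtaggtcagcgc

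Promoters were described in the same way, because SOX11 is a transcription factor of the SOX family, whose members bind words close to ACAAAG or ACAATG. RefSeq promoter windows of 300 bases (GRCh38.p14) were found for 9 of the 10 members, and 24.47% of 35116 windows of all genes held one of these 6-base words on either strand. *LITAF* held 1 in 1 of its 3 windows, at chr16:11587593-11587622 on the minus strand, 144 bases before the annotated start. It is shown with the word in capitals, and binding of SOX11 there was not tested. The share given is per window, so a gene with 3 windows has more chances to hold a word. *SNX2* held 1, *NEDD4* held 1 in 1 of its 3 windows, and the windows of *SNX1* and the other members matched held none of these letters.
LITAF: caccctgggggcACAAAGcggacaggcagc

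None of the 8 partner genes passed the test in any line. With edgeR's quasi-likelihood F-test and an adjusted p-value (Benjamini-Hochberg) under 0.05 over all genes tested, 0 of 8 were called in REH, where 4.65% of 12787 genes were called (2.64% higher and 2.02% lower), 0 of 8 in 697, where 0.559% of 12169 were (0.0822% higher and 0.477% lower), and 0 of 8 in RCH-ACV, where 7.64% of 12963 were (3.68% higher and 3.97% lower). DESeq2 called 0 of 8 in each line as well. At an unadjusted p-value under 0.05 there were 1, 0 and 1 genes. The fitted log2 fold changes lay between -0.13 and 0.12, and the 95% intervals reached from -0.25 to 0.24. Their median for REH, 697 and RCH-ACV was 0.01, 0.02 and -0.06, beside 0.00, 0.00 and 0.01 over all genes tested. Whether groups overlapped is given below as a description only. With few samples per group unchanged genes can also lack overlap, and the share over all genes was not computed.

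Of the sorting nexins, *SNX2*, which can take the place of *SNX1* beside *SNX5* or *SNX6*, came nearest to the threshold. In REH it held 327, 309 and 310 CPM in controls and 335, 330 and 334 CPM with *SOX11* siRNA. The groups did not overlap there, the log2 fold change was 0.09 ± 0.03 (SE, n = 3 per group), and the adjusted p-value from edgeR was 0.187. The *SNX2* groups overlapped in 697 and in RCH-ACV, with log2 fold changes of 0.12 and 0.06. *SNX5* and *SNX6*, which supply the other partner of the pair, overlapped between the groups in every line. *SNX5* had log2 fold changes of 0.09, 0.05 and -0.02 in REH, 697 and RCH-ACV, and *SNX6* of -0.08, 0.01 and -0.07.

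Among the retromer genes, *VPS26A* in RCH-ACV held 106, 94.0 and 94.6 CPM in controls and 92.6, 89.4 and 87.7 CPM with *SOX11* siRNA. All knockdown samples were lower than all controls, at a log2 fold change of -0.13 ± 0.06 (SE, n = 3 per group) and an adjusted p-value of 0.190 from edgeR. In REH and 697 its means were at 99.0% and 100.2% of control. *VPS35*, the scaffold of retromer, held 246, 258 and 241 CPM in the RCH-ACV controls and 234, 234 and 241 CPM in the knockdown samples, whose highest value lay just below the lowest control, with an adjusted p-value of 0.336. *VPS35* overlapped between the groups in the other lines, and *VPS29*, the subunit that recruits TBC1D5, overlapped in all 3 lines, at 98.2% to 102.9% of control.

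The ubiquitin ligase *NEDD4* held 39.0, 39.7 and 38.6 CPM in the REH controls and 41.2, 42.03 and 42.5 CPM with *SOX11* siRNA, without overlap, and the adjusted p-value was 0.445. Its groups overlapped in 697 and RCH-ACV. *ITCH*, a ligase of the same family, overlapped in every line, at 100.6%, 102.6% and 95.8% of control. The siRNA effect did not pass the test of a difference between lines for any of the 8 genes, with adjusted p-values from 0.750 to 0.944 in edgeR's interaction test, against 0.727% of 14026 genes called. DESeq2's likelihood ratio test also called 0. A p-value that misses the threshold does not show equal levels; the intervals given bound the differences that these samples leave possible.

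**Figure D2:**
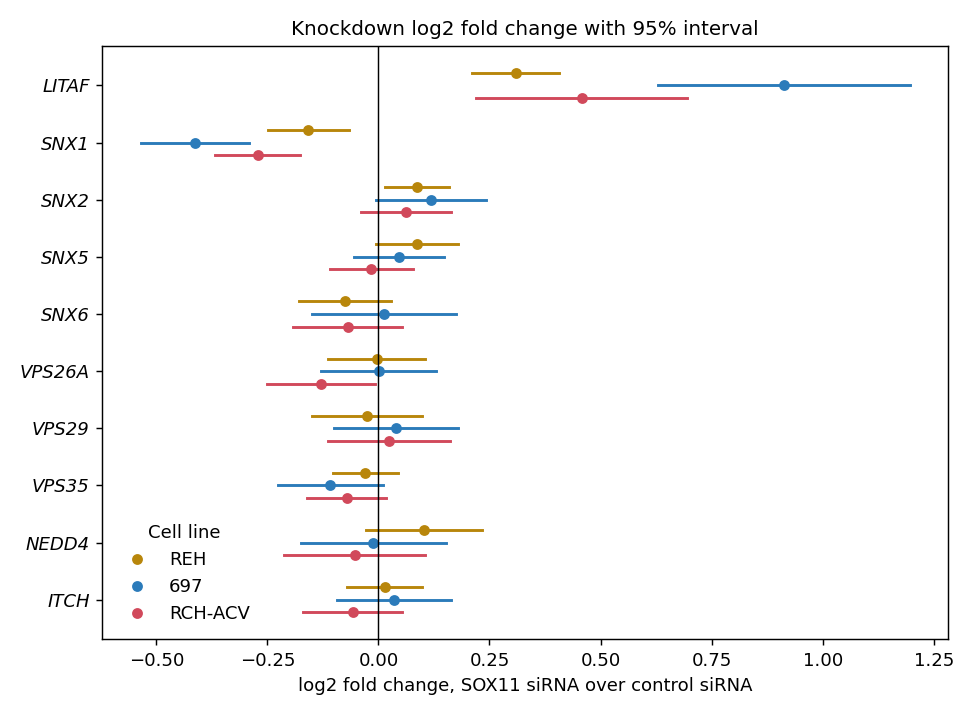
Fitted log2 fold change of *SOX11* siRNA over control siRNA (horizontal axis) for each member and cell line; lines are 95% intervals. The 3 *LITAF* values (0.31, 0.91 and 0.46) lie right of 0 and the 3 *SNX1* values (-0.16, -0.41 and -0.27) left of it, whereas the other members lie between -0.13 and 0.12. *LITAF* and *SNX1* were chosen by this contrast and the others by function, so this separation is a description only.

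**Figure D3:**
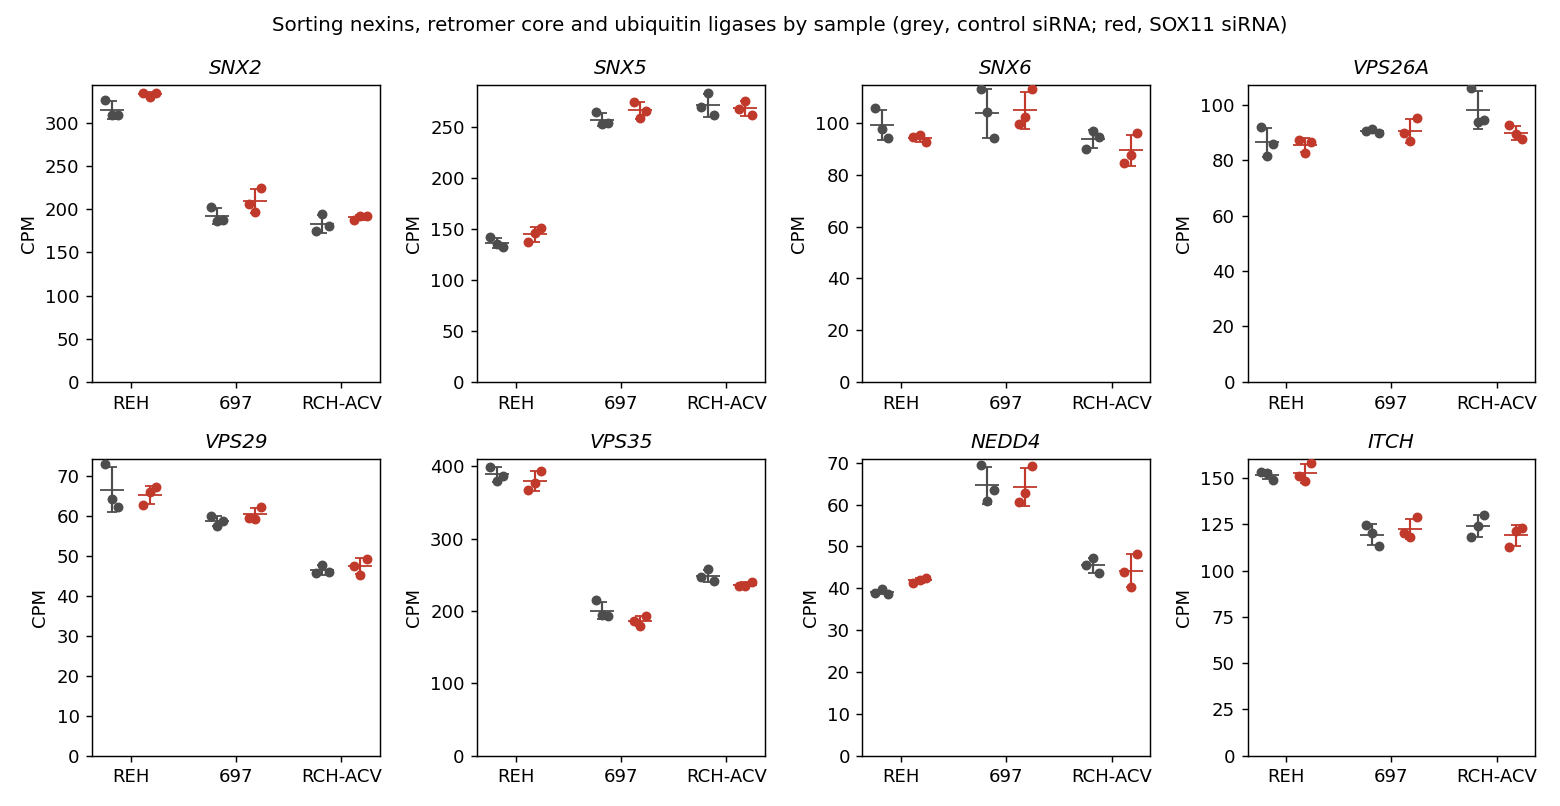
Level of the 8 partner genes in each sample, in CPM, by cell line; grey points are control siRNA, red points *SOX11* siRNA, and marks and bars are the mean and SD of 3. The *VPS35* means of 389 CPM in REH controls and 201 CPM in 697 controls lie further apart than the siRNA groups of either line.

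The lines themselves differed in the level of these genes, which the choice of members did not use. Across the 9 control samples, *LITAF* in REH was 6.17-fold higher than in 697 (log2 difference 2.62 ± 0.08, SE; adjusted p = 2.01e-15, edgeR) and 9.32-fold higher than in RCH-ACV (3.22 ± 0.09; adjusted p = 2.85e-16, edgeR). It was 1.51-fold higher in 697 than in RCH-ACV (0.60 ± 0.12; adjusted p = 3.74e-04, edgeR). The order was thus REH, 697 and RCH-ACV. With an absolute log2 difference over 1 required as well, 1 of 10 members was called between REH and 697, where 30.7% of 13686 genes were, 2 of 10 between REH and RCH-ACV, where 25.6% were, and 0 of 10 between 697 and RCH-ACV, where 20.4% were.

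*SNX5* was the other member called, at a mean of 137 CPM in REH controls and 272 CPM in RCH-ACV controls. Its log2 difference of -1.003 sits on the threshold and fell short of it in 3 of the fits that leave out a control sample, namely REH control 2 or 3 or RCH-ACV control 2, and with library size alone. *SNX1* was also lower in REH, at 0.813 times its level in 697 and 0.818 times that in RCH-ACV, and its level in the latter lines did not differ beyond their spread (1.01-fold, adjusted p = 0.869, edgeR). *SNX2* went the other way, at 1.63 times its 697 level and 1.71 times its RCH-ACV level in REH. *VPS35* was 1.92-fold and 1.55-fold higher in REH than in 697 and RCH-ACV. *NEDD4* was highest in 697, at 64.6 CPM against 45.4 in RCH-ACV and 39.1 in REH. *SNX6* passed the test in none of the 3 comparisons. At an adjusted p-value under 0.05 of any size, 8 of 10 members differed between REH and 697, 9 between REH and RCH-ACV and 4 between 697 and RCH-ACV, against 76.3%, 73.9% and 64.2% of all genes. Each line here is 1 culture model, so the features by which the lines differ cannot be told apart.

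**Figure D4:**
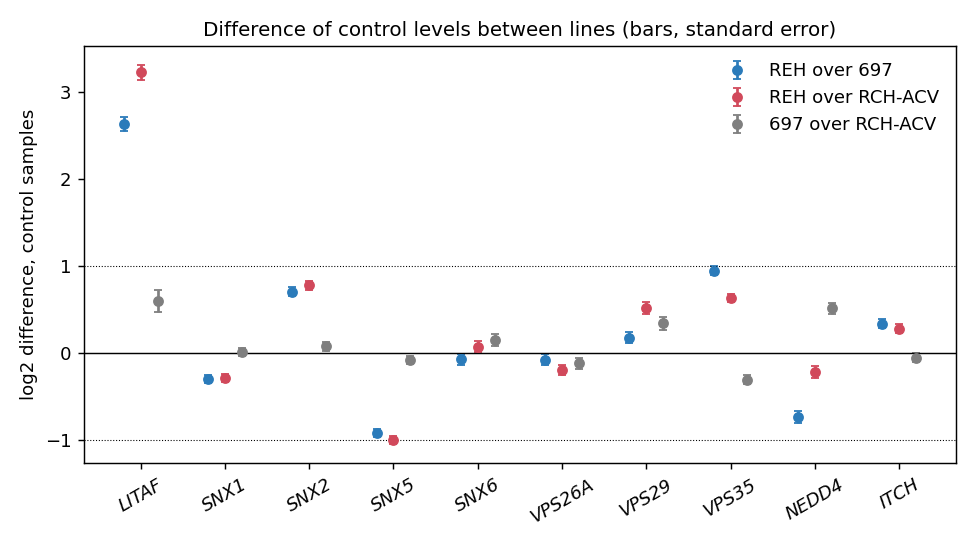
Difference of control levels between the cell lines for each member, as log2 difference with SE bars (9 control samples); dotted lines mark 1 and -1. *LITAF* stands at 2.62 and 3.22 for REH over 697 and over RCH-ACV, and *SNX5* at -0.92 and -1.003.

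Beyond the 10 members, 73 genes of endosomal sorting were listed by function. In REH 4 of 69 tested were called (5.80%), 3 higher and 1 lower; in 697 2 of 68 (2.94%), both lower; and in RCH-ACV 3 of 68 (4.41%), 1 higher and 2 lower. *WBP1L*, known beforehand to be lower, is among the genes called in each line, so these shares are not independent counts. Apart from *WBP1L*, the genes called were *HECW1*, *SNX3* and *SORL1* in REH, *TBC1D5* in 697, and *TBC1D5* and *SMURF1* in RCH-ACV. Over all genes tested 4.65%, 0.559% and 7.64% were called in REH, 697 and RCH-ACV. The median log2 fold changes of the list genes were 0.00, -0.02 and -0.04, against 0.00, 0.00 and 0.01 over all genes. With all samples, 0 of the 11 ESCRT-0 and ESCRT-I genes were called in any line. Nor were any of the 18 ESCRT-II and ESCRT-III genes tested (of 19). The same held for the 5 retriever and CCC genes and for the WASH complex genes tested (6 in REH, 5 in each other line). Sets this small can hold 0 calls at the shares of all genes. *CHMP4C*, *HECW2*, *NDFIP2* and *SNX7* were too low to be tested in any line, *WASHC1* in RCH-ACV and *WASHC2A* in 697, and the near-identical copies *WASHC2A* and *WASHC2C* are uncertain, since reads may be split between them. Without replicate 3 of RCH-ACV with *SOX11* siRNA, 10 of 68 list genes were called there, 2 higher and 8 lower, while 19.2% of all genes were. They included the ESCRT-III and related genes *CHMP2A* (log2 fold change 0.28, adjusted p = 0.0103, edgeR), *CHMP5* (-0.23, adjusted p = 0.0276) and *VPS4B* (-0.17, adjusted p = 0.0186) and the WASH complex gene *WASHC4* (-0.18, adjusted p = 0.00643). The retromer core gene *VPS26B* (-0.14, adjusted p = 0.0449, edgeR) and the cargo receptors *IGF2R* (-0.16, adjusted p = 0.0175) and *SORT1* (-0.32, adjusted p = 0.0412) were called as well. All of these are named after their values were seen. The rest were *TBC1D5*, *SMURF1* and *WBP1L*, which were also called with all samples.

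*WBP1L*, which encodes a membrane protein that binds NEDD4-family ligases, fell in every line. It held 238, 237 and 248 CPM in the REH controls and 181, 179 and 187 CPM with *SOX11* siRNA. In 697 the controls held 39.4, 39.2 and 39.5 CPM and the knockdown samples 23.4, 23.2 and 23.7 CPM. In RCH-ACV the controls held 40.2, 39.5 and 42.6 CPM and the knockdown samples 24.6, 25.7 and 26.6 CPM. No groups overlapped, and the log2 fold changes were -0.40, -0.75 and -0.67 (adjusted p = 4.11e-07, 0.00143 and 4.61e-05, edgeR). That *WBP1L* was lower was already known from an earlier analysis of these data, so these p-values are not an independent test.

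*TBC1D5*, a RAB7 GTPase-activating protein that binds retromer, fell in 697 and RCH-ACV. The 697 controls held 197, 178 and 179 CPM and the knockdown samples 115, 119 and 131 CPM. The RCH-ACV controls held 146, 143 and 143 CPM and the knockdown samples 98.0, 105 and 123 CPM. The log2 fold changes were -0.61 and -0.41 (adjusted p = 0.00106 and 8.34e-04, edgeR), whereas in REH the value was -0.12 with an adjusted p-value of 0.0958. Both *WBP1L* and *TBC1D5* hold the 7-base word shown above. That word was picked from these data by its lowered genes, so this is not independent evidence. *MVB12B* and *VPS37C*, the ESCRT-I genes that hold it too, were called in no line, with log2 fold changes of -0.36, 0.06 and 0.03 for *MVB12B* and -0.48, -0.18 and -0.20 for *VPS37C*.

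Higher levels passed the test for 3 list genes in REH and 1 in RCH-ACV. *HECW1*, a NEDD4-family ligase, held 4.18, 3.52 and 3.24 CPM in the REH controls and 7.49, 6.32 and 6.89 CPM with *SOX11* siRNA (log2 fold change 0.92, adjusted p = 0.00116, edgeR). *SNX3*, a sorting nexin that recruits retromer, held 69.3, 63.2 and 61.0 CPM in the REH controls and 76.4, 82.6 and 76.0 CPM in the knockdown samples (0.28, adjusted p = 0.00426, edgeR). Neither gene overlapped between the groups in REH. *SORL1*, a cargo receptor of retromer, was called in REH at 0.19 (adjusted p = 0.0391, edgeR), although its groups overlapped and the call was lost in 6 of 15 alternatives (DESeq2, the fit over 18 samples, and 4 fits without 1 sample). *SMURF1*, another ligase of the family, held 49.7, 46.8 and 47.4 CPM in the RCH-ACV controls and 55.9, 58.8 and 58.3 CPM in the knockdown samples (0.27, adjusted p = 0.0119, edgeR), and its call was lost in 3 of 15, without knockdown replicate 2 or control replicate 2 or 3. In 697 *SNX3* and *SMURF1* were not called, at 0.17 and 0.11 (adjusted p = 0.658 and 0.668, edgeR). The test of a difference between lines did not pass for *SNX3* (adjusted p = 0.702, edgeR), *SORL1* (0.585) or *SMURF1* (0.159).

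**Figure D5:**
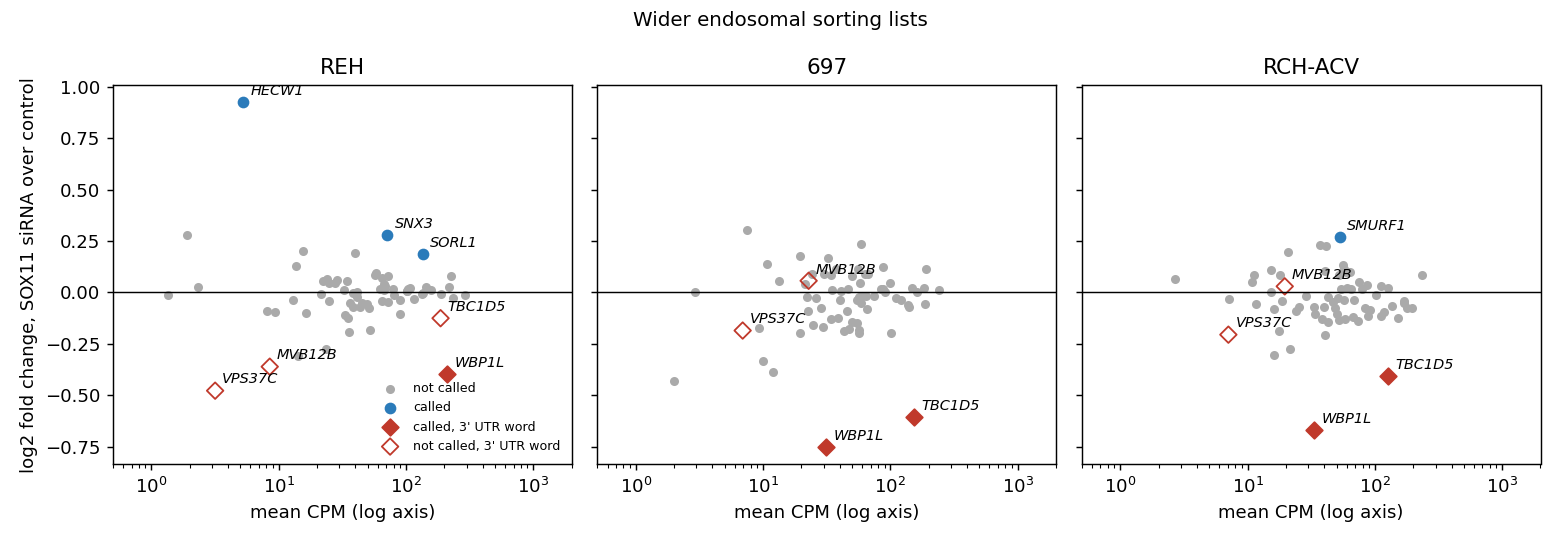
Log2 fold change of *SOX11* siRNA over control siRNA against mean CPM (log axis) for the wider endosomal sorting genes in each line; blue points passed the test, and red diamonds hold the 7-base word in the 3′ UTR (filled if called). *WBP1L* lies at -0.40, -0.75 and -0.67 in REH, 697 and RCH-ACV, and most other genes lie near 0.

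The genes whose levels moved most like those of *LITAF* and *SNX1* were found from log2 CPM centred on each line's mean, over 18 samples and 9908 genes, as a description. For *LITAF* they were *PLEKHB2* (Pearson's r = 0.916), *NAA50* (0.912) and *EIF4EBP2* (0.903), with -0.867 for *SOX11*. For *SNX1* they were *WDTC1* (0.973), *HNRNPA1P10* (0.970) and *HNRNPA1* (0.966), with 0.938 for *SOX11*. The siRNA groups separate these samples, so the points share the contrast that chose the members. *HNRNPA1P10* is a pseudogene copy of *HNRNPA1* and may share its reads. *WDTC1* and *HNRNPA1* hold the 7-base word in the 3′ UTR scanned, which is not independent evidence, since the word was picked from these data. *WDTC1* was at 44.4 CPM against 66.7 in REH, 37.5 against 83.0 in 697 and 33.8 against 54.5 in RCH-ACV.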

How the data were processed

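RNA-seq was done on 18 samples (3 per line and siRNA). The authors aligned reads to hg19 with STAR 2.5.3a after FastQC 0.10.1 and used HOMER for counting over RefSeq transcripts, and they deposited raw counts, without normalization, in 1 table per line. The tables held 0 columns of other samples. Symbols were matched for 98.0% of 50678 transcripts, and the transcript with the highest total was kept per gene, since transcripts of a gene share reads.

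Lines were tested separately with edgeR 4.0.16 in R 4.3.3 (TMM, filterByExpr, quasi-likelihood F-test, two-sided, Benjamini-Hochberg over all genes tested); the interaction used 18 samples and the line comparison 9 controls. Printed CPM are on 1 TMM scale over all samples. Between REH and 697 the median gene differed by 0.134 (log2) more with library size alone than with TMM. Alternatives were RLE factors, library size, DESeq2 1.42.0, edgeR's legacy method, other filters (none; CPM above 1 in 3 samples), a replicate block, a joint fit, another transcript choice and leaving out each sample. 3′ UTRs and positions came from GENCODE 44 lifted to hg19, promoters from RefSeq. Protein features were not analysed here, and 1 B-cell marker is not reported here. Replicates are biological per the authors, but the labels name no separate cultures, and p-values measure the spread between these samples. Chi-square per degree of freedom between replicates was at least 1.28, above read sampling alone, so no pair looked like a single library sequenced again. This value cannot tell separate cultures from libraries made anew from the same RNA. The named genes were the 10 members, list genes called in a line, *SOX11* and the 3 genes most like *LITAF* and *SNX1* with a mean of at least 10 CPM; *MVB12B* and *VPS37C* were named after their values were seen, for holding the word. Members and lists were chosen with earlier results of these data known. Figures were drawn with matplotlib 3.10.9 in Python 3.11.15.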

Additional observations from a re-analysis of the deposited data

Results flagged for a closer look

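The siRNA effect differed between the 3 lines for 3 of the 69 genes tested in the wider endosomal lists (4.35%), against 0.727% of 14026 genes, in edgeR's interaction test over 18 samples. The lists were made with earlier results of these data known. *WBP1L*, known beforehand to be lower, is 1 of the 3, so the share is not an independent count. The adjusted p-value was 0.028 for *HECW1*, with log2 fold changes of 0.92, -0.19 and -0.08 in REH, 697 and RCH-ACV. It was 0.0195 for *TBC1D5*, with log2 fold changes of -0.12, -0.61 and -0.41 in REH, 697 and RCH-ACV. It was 0.0335 for *WBP1L*, with log2 fold changes of -0.40, -0.75 and -0.67. Of the other genes named, *SMURF1* (0.159), *MVB12B* (0.417), *SORL1* (0.585), *SNX3* (0.702) and *VPS37C* (0.895) did not pass. The causes were not tested.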

How the results depend on the processing

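No partner gene was called under any alternative run. Without 1 sample the list genes called in RCH-ACV ranged from 2 to 10, and the members called between REH and RCH-ACV from 1 to 2; with library size alone the latter count was 1 and that between REH and 697 was 2. The replicate numbers did not pair the samples (same-number correlations from -0.15 to 0.156), and with the replicate block 0 partner genes and 4, 2 and 3 list genes were called in REH, 697 and RCH-ACV, as without it. Signs of values near 0 turned: *NEDD4* in 697 was 1.89e-04 with library size alone and 0.00205 with no filter, and *VPS26A* in 697 was -4.87e-04 with the replicate block. With library size alone the control difference of REH over 697 was 0.0602 for *SNX6* and 0.0555 for *VPS26A*, and that of 697 over RCH-ACV was -0.0517 for *SNX1*. Leaving out 1 sample gave, in REH, -0.0531 to 0.0484 for *VPS26A*, -0.0596 to 0.0467 for *VPS29* and -0.00876 to 0.0289 for *ITCH*. In 697 it gave -0.0470 to 0.0778 for *SNX6*, -0.0315 to 0.0365 for *VPS26A* and -0.0640 to 0.0416 for *NEDD4*. In RCH-ACV it gave -0.0432 to 0.0174 for *SNX5*, -0.00703 to 0.0619 for *VPS29* and -0.124 to 0.0237 for *NEDD4*, and for *SNX1* between control 697 and RCH-ACV -0.00687 to 0.0251. For differences of control levels between lines, an adjusted p-value under 0.05 was lost in 7 cases and gained in 5 under an alternative (edgeR or DESeq2). The counts of members that differed at any size can thus shift with the processing. The cause was not tested. Among the 10 members, *LITAF* in RCH-ACV had the fewest reads, at 78 counts in the lowest control.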
